A study of Mus musculus with 18 samples.

Results

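The effect of Dap5 knockdown on heavy polysomes was set against its effect on light polysomes in 4T1 cells, which derive from a mammary carcinoma of a BALB/c mouse and serve to model triple-negative breast cancer. The comparison used 12 of the 18 libraries of the study, chosen by the group names in the sample titles: 3 libraries each of NSi light, NSi heavy, shDap5 light and shDap5 heavy. NSi cells carried a non-silencing hairpin and shDap5 cells a hairpin against Dap5, the gene listed as Eif4g2. Cells of both arms received 2 µg/ml doxycycline for 6 days, and polyadenylated RNA was sequenced from pooled light and pooled heavy fractions of sucrose gradients. The labels do not give the number of hairpins, whether an arm was a clone, or whether the 3 libraries per group stem from different cultures, so the spread behind each p-value may be partly technical.

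A messenger RNA that carries more ribosomes sediments deeper in a sucrose gradient, so light polysomes hold mRNAs with few ribosomes and heavy polysomes hold mRNAs with many. Short reading frames have room for few ribosomes and lie mostly in the light fractions. DAP5 is a relative of the initiation scaffold eIF4G that lacks the part binding the cap-binding protein eIF4E, and it is known for supporting translation that does not pass through eIF4E. For each gene the quantity reported is the shift: the log2 ratio of heavy to light in shDap5 minus the same ratio in NSi. A positive shift means that the mRNA lay relatively more on heavy polysomes after knockdown. Levels are given as CPM, counts scaled to the size of each library, and the standard error (SE) and the 95% interval belong to the shift.

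The 12 libraries held 30385863 to 71331978 counts, and 3 counts, the limit that a count of 0 allows, correspond to 0.0421 to 0.0987 CPM; such limits cover counting error only. Markers of mammary carcinoma epithelium (7 of 7 detected) summed to 2830 to 8990 CPM, whereas those of lymphocytes summed to at most 0.287 CPM, those of red cells to at most 0.111 CPM, those of endothelium to at most 6.28 CPM, those of adipocytes to at most 5.77 CPM, those of fibroblasts to at most 23.2 CPM and those of macrophages to at most 132 CPM. One library, shDap5 heavy number 2, stood apart. RNAs made by RNA polymerase III, which are not polyadenylated, summed to 35.3 CPM in it and to 0.452 to 2.57 CPM in the other 11. Results that rest on this library are given with and without it.

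Eif4g2 itself was lower in shDap5 in both fractions, and its heavy to light ratio did not differ between the arms beyond the replicate spread. On light polysomes it stood at 1240, 911 and 731 CPM in NSi libraries 1, 2 and 3 and at 415, 281 and 264 CPM in shDap5. On heavy polysomes it stood at 785, 786 and 606 CPM in NSi and at 326, 257 and 203 CPM in shDap5. The arms did not overlap in either fraction, with a log2 difference of -1.58 on light polysomes (edgeR adjusted p = 0.00848) and of -1.47 on heavy polysomes (edgeR adjusted p = 0.0109). Its shift was 0.11 (SE 0.36, 95% interval -0.65 to 0.88, edgeR adjusted p = 1), and by replicate number it was 0.31, 0.08 and -0.11. The sign of this small value changed without NSi number 1 (-0.05) and without some single libraries (range -0.11 to 0.31).

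Across the transcriptome no gene passed the test of the shift in the unblocked fit: of 14251 genes tested, 0 were higher (0%) and 0 were lower (0%) by edgeR at an adjusted p under 0.05, and 77 (0.54%) had an unadjusted p under 0.05. DESeq2 and limma voom also called 0. For comparison, the same fit called 215 genes (1.51%) between the arms on light polysomes and 271 (1.9%) on heavy polysomes. The bulk libraries do not separate a move of all copies of an mRNA by a small distance from a move of a few copies by a large one, nor fewer responding cells from a smaller response per cell. Among the 10196 genes averaging 5 CPM or more, the median 95% interval reached 0.67 on either side of the estimate. For 7508 of them (73.6%) the whole interval lay within 1 log2 unit of 0, and for the remainder the interval held shifts of at least that size.

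Replicate numbers paired the libraries, both light with heavy of one arm and NSi with shDap5 of one fraction. With a block for each gradient 0 genes were called (0%), while 384 (2.69%) had an unadjusted p under 0.05. A fit chosen after seeing the data, with blocks for each gradient and for each fraction and number together, called 129 genes (0.905%), 82 higher (0.575%) and 47 lower (0.33%). The doubly blocked fit kept only 2 residual degrees of freedom, so the spread of a gene was taken largely from other genes and on simulated counts it also called some genes that had not been changed, so single calls are not firm. Without number 1, 2 or 3 it called 352, 35 and 30 genes, of which 83, 17 and 18 were among the 129, so 1 number decides most single calls. Called in all 3 of these fits were 4 genes: Pcolce, Ggact, Cox7b and the uncharacterised LOC102631912 (shift 0.65). A limma test on the 3 within-number differences called 15 genes, 8 of them among the 129. Below, "called" refers to the doubly blocked fit, and edgeR adjusted p-values are from it unless said otherwise. No gene named passed in the unblocked fit. Each count of called list members below is to be read against the 0.575% higher and 0.33% lower of all genes tested.

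**Figure D1:**
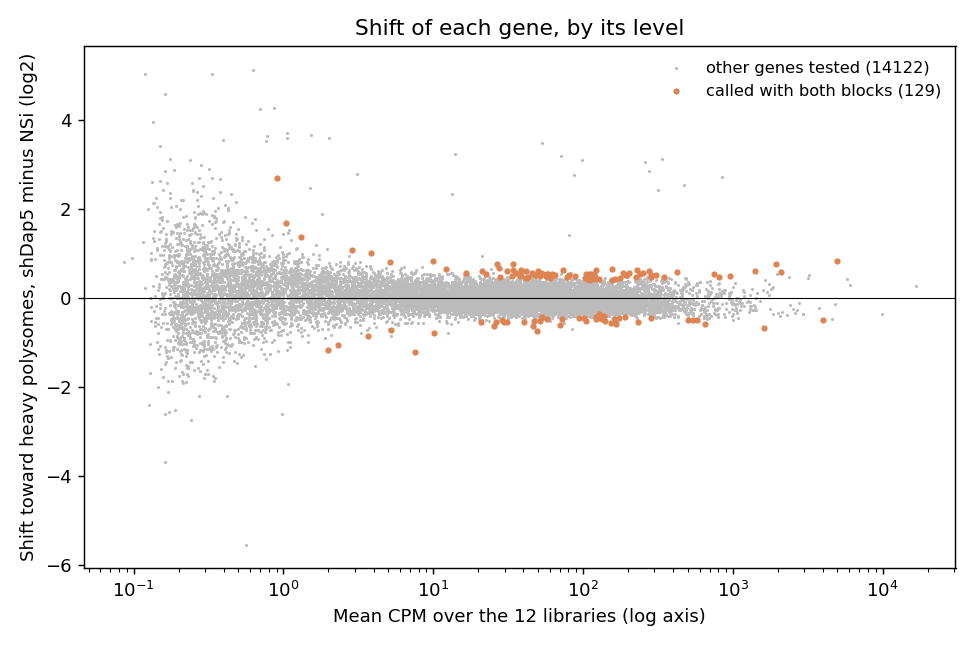
Each point is a gene, with its mean CPM over the 12 libraries on a log axis and its shift from the unblocked fit (log2) on the vertical axis. The 129 genes called with both blocks are in orange, 82 above and 47 below 0; the scattered grey points above 1 at high CPM are the 13 genes raised in shDap5 heavy number 2.

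The genes called higher were mostly short mRNAs that lay on light polysomes in the control: of the 82, the heavy to light ratio in NSi was below 0 (log2) for 82, against 7152 of all 14251 genes tested. That ratio itself enters the shift. Dynlt3, a light chain of the dynein motor, had 38.4, 45.6 and 42.6 CPM on NSi heavy polysomes and 62.9, 65.2 and 67.6 CPM on shDap5 heavy polysomes. On light polysomes the arms overlapped, at 210, 197 and 172 CPM in NSi and 195, 179 and 206 CPM in shDap5. The shift of Dynlt3 was 0.62 (SE 0.11, adjusted p = 0.00682), with 0.82, 0.65 and 0.4 by number. Without number 2 its adjusted p was 0.0514. Its difference on heavy polysomes alone was 0.63 in the unblocked fit (edgeR adjusted p = 0.045).

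Ggact, a cyclotransferase that acts on gamma-glutamylamines, stood at 11.6, 11.3 and 15.1 CPM on NSi heavy and at 19.5, 16.7 and 20.8 CPM on shDap5 heavy polysomes. Its light levels were 49.4, 34.1 and 35.1 CPM in NSi and 38.3, 30.8 and 36.0 CPM in shDap5. The heavy libraries of the arms did not overlap, and the shift was 0.74 (SE 0.14, adjusted p = 0.00697). Crls1, the cardiolipin synthase, shifted by 0.65 (adjusted p = 0.0175) and Pfdn4, a subunit of the prefoldin chaperone, by 0.60 (adjusted p = 0.0161). Smim10l1, a small membrane protein, shifted by 0.69 (adjusted p = 0.00863). Its light levels were 73.7, 66.9 and 40.5 CPM in NSi and 50.7, 40.1 and 38.5 CPM in shDap5, lower within each number, while its heavy levels overlapped. Crls1, Pfdn4 and Smim10l1 were not called without number 2 (adjusted p = 0.0514, 0.0632 and 0.0551).

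**Figure D2:**
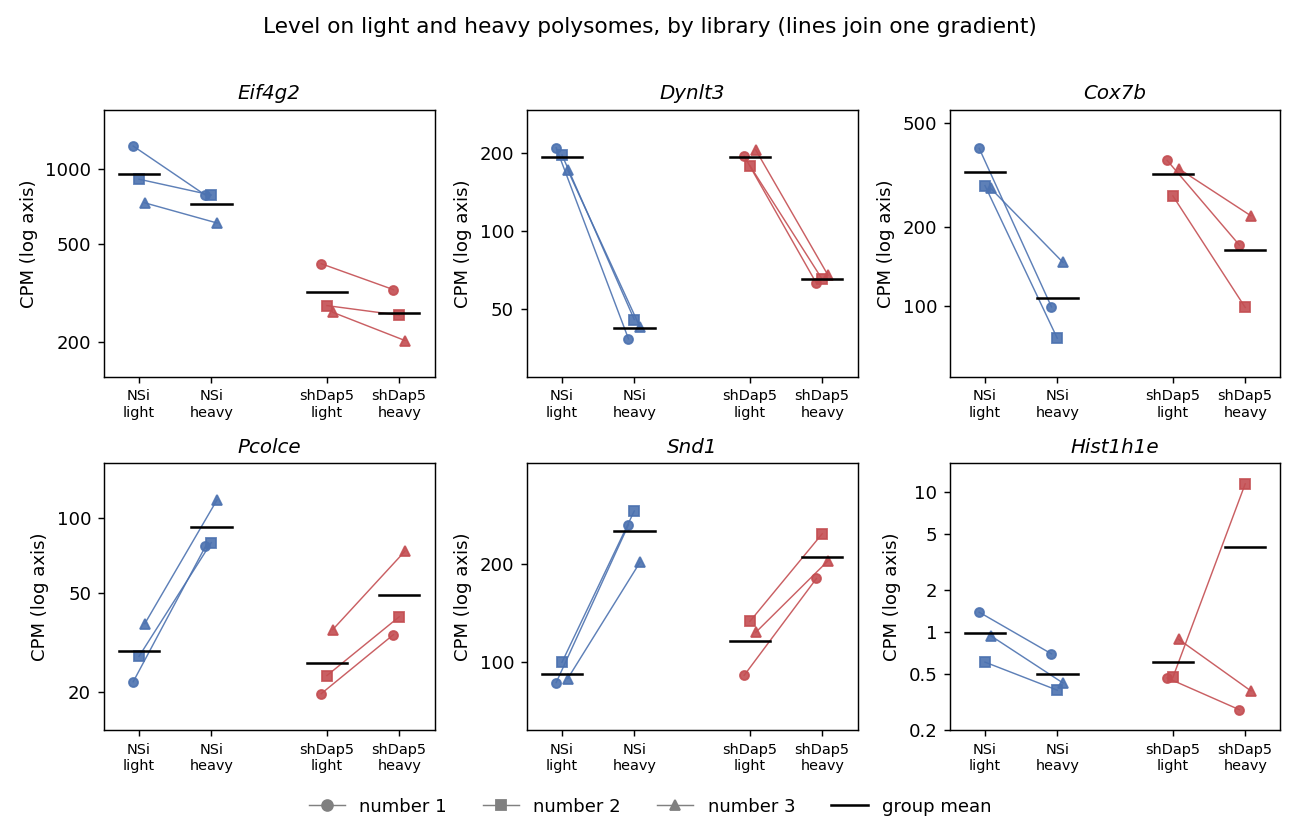
CPM of 6 genes on a log axis in the 12 libraries; lines join the light and heavy libraries of one gradient, marker shapes give the replicate number and black bars the group means. Dynlt3 and Cox7b fall less steeply from light to heavy in shDap5 than in NSi, Pcolce and Snd1 rise less steeply, Eif4g2 is lower throughout with similar slopes, and Hist1h1e is high in a single library.

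Of 79 nuclear-encoded subunits of the respiratory chain tested, 7 were called higher and 0 lower, against 0.575% and 0.33% of all genes tested. In this list 59 had a shift above 0 against 47.7% of all genes, and 20 lay below 0. Its median shift was 0.24 against -0.01 over all genes. Among all 2511 genes of the shortest coding length, described below, 67 were called higher, 78.1% lay above 0 and the median was 0.18. The share above 0 is therefore not particular to this list. Of the 75 members averaging 5 CPM or more, 5 had all shDap5 gradients above all NSi gradients, against 3.32% of genes at that level, and 2 had the reverse, against 6.71%. By number the median was 0.36, 0.05 and 0.16. It ranged from 0.03 without shDap5 number 3 to 0.42 without shDap5 number 2. The doubly blocked fit called 6 members higher and 5 lower without number 1, 5 and 0 without number 2, and 2 and 0 without number 3. Cox7b, a subunit of cytochrome c oxidase, had 99.6, 75.7 and 147 CPM on NSi heavy and 171, 99.1 and 221 CPM on shDap5 heavy polysomes. On light polysomes its levels were 399, 288 and 281 CPM in NSi and 359, 263 and 334 CPM in shDap5. The heavy level was higher in shDap5 within each number, though the arms overlapped, and the shift was 0.60 (SE 0.12, adjusted p = 0.0161).

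Cox6c, another subunit of that enzyme, shifted by 0.59 (adjusted p = 0.0161), the complex III subunit Uqcr11 by 0.54 (adjusted p = 0.0175), the complex IV-associated Ndufa4 by 0.58 (adjusted p = 0.0196) and the complex I subunit Ndufs5 by 0.65 (adjusted p = 0.0312). The complex I assembly factor Ndufaf4, outside the list, shifted by 0.58 (adjusted p = 0.0297). Without number 3 none of Cox6c, Uqcr11, Ndufa4, Ndufs5 and Ndufaf4 was called (adjusted p = 0.0964, 0.116, 0.116, 0.183 and 0.123). Ndufaf4 and Ndufs5 were also not called without number 1 (adjusted p = 0.0915 and 0.102), nor Ndufaf4 and Uqcr11 without number 2 (adjusted p = 0.134 and 0.0514). Against 0.575% and 0.33% of all genes tested, 3 of 75 mitochondrial ribosomal proteins were called higher and 0 lower. Among them Mrpl51 shifted by 0.53 (adjusted p = 0.0217) and Mrps17 by 0.44 (adjusted p = 0.0441). The list's median was 0.07, and -0.01 and -0.03 in numbers 2 and 3, and without number 2 or 3 no member was called.

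The list of messengers encoded by the mitochondrial genome was formed after the symbols of the files were seen. Of its 7 tested members, 3 were called higher and 0 lower, against 0.575% and 0.33% of all genes tested. A shift below 0 was found for 1, and 6 were higher in all 3 numbers, against 17.2% of genes averaging 5 CPM or more. Without number 1, 2 or 3, 1, 5 and 0 of them were called higher, and the median by number was 0.17, 0.38 and 1.2. CYTB, the cytochrome b mRNA, stood at 9790, 2970 and 12400 CPM on NSi light and at 7030, 1900 and 5770 CPM on shDap5 light polysomes. On heavy polysomes it stood at 4570, 2150 and 2720 CPM in NSi and at 4610, 1970 and 3300 CPM in shDap5. The lower light level within each number gave most of the shift of 0.79 (SE 0.15, adjusted p = 0.0161). ND4 shifted by 0.73 (adjusted p = 0.0176) and ND5 by 0.65 (adjusted p = 0.0184), both complex I subunits. Ribosomes inside mitochondria translate these mRNAs, and the part of material other than cytosolic polysomes in the other shifts was not tested.

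S100a4, a small calcium-binding protein and a marker of mesenchymal and metastatic cells, had 953, 680 and 1260 CPM on NSi heavy and 1610, 872 and 2130 CPM on shDap5 heavy polysomes. On light polysomes it had 3360, 2420 and 2740 CPM in NSi and 3490, 2340 and 3170 CPM in shDap5. The shift of S100a4 was 0.55 (SE 0.13, adjusted p = 0.0217) and that of its relative S100a11 was 0.56 (SE 0.13, adjusted p = 0.0186), with overlap between the arms in both fractions. Neither was called without number 2 (adjusted p = 0.0514 and 0.103) or without number 3 (adjusted p = 0.214 and 0.176).

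Genes called lower had longer coding regions than those called higher, with a median of 1510.5 bases against 1402.5 for all tested genes. They lay mostly on heavy polysomes in the control, with a heavy to light ratio in NSi above 0 (log2) for 43 of the 47. Of all 14251 genes tested, 7152 lay below 0. Here too that ratio enters the shift. Pcolce, which enhances the removal of the C-terminal propeptide of procollagens, stood at 76.8, 79.5 and 118 CPM on NSi heavy and at 34.0, 40.1 and 73.5 CPM on shDap5 heavy polysomes. On light polysomes the arms were close, at 22.0, 27.8 and 37.6 CPM in NSi and 19.7, 23.3 and 35.6 CPM in shDap5. All 3 shDap5 heavy libraries lay below the lowest NSi heavy library, and the shift was -0.78 (SE 0.12, adjusted p = 0.000872), with -1.02, -0.73 and -0.61 by number. It was called without each number in turn, with adjusted p from 0.00137 to 0.0103. In the unblocked fit the shift was -0.74 (SE 0.45, edgeR adjusted p = 1).

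Plod3, a lysyl hydroxylase and glycosyltransferase that modifies collagens, had 267, 255 and 210 CPM on NSi heavy and 177, 197 and 171 CPM on shDap5 heavy polysomes. Its light levels were 96.4, 118 and 116 CPM in NSi and 110, 123 and 127 CPM in shDap5. The heavy libraries did not overlap, and the shift was -0.55 (SE 0.11, adjusted p = 0.0161). Plod3 was not called without number 2 (adjusted p = 0.0859) or number 3 (adjusted p = 0.104). Snd1, an RNA-binding nuclease-domain protein, shifted by -0.57 (adjusted p = 0.0105). Its light levels of 86.3, 99.6 and 88.8 CPM in NSi against 90.8, 133 and 123 CPM in shDap5 and its heavy levels of 263, 290 and 202 against 180, 247 and 204 CPM show it higher on light and lower on heavy polysomes in numbers 1 and 2. In number 3 only the light level differed. Snd1 was not called without number 2 (adjusted p = 0.186) or number 3 (adjusted p = 0.0789).

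The zinc finger protein Zc3h7b shifted by -0.53 (adjusted p = 0.0161) through its light level, which was 84.0, 101 and 97.7 CPM in NSi and 142, 162 and 157 CPM in shDap5. Other called genes with lower shifts were Polr1c, a subunit shared by RNA polymerases I and III, at -0.58 (adjusted p = 0.00863), Impdh2, an enzyme of guanine nucleotide synthesis, at -0.57 (adjusted p = 0.0186), the metalloprotease Adam8 at -0.62 (adjusted p = 0.0196), the zinc importer Slc39a4 at -0.63 (adjusted p = 0.0175), Armc6 at -0.63 (adjusted p = 0.017), the mannosyltransferase Alg1 at -0.55 (adjusted p = 0.0251) and Hspa8, the constitutive Hsp70 chaperone, at -0.52 (adjusted p = 0.0176). Without number 2 no gene named in this paragraph was called, and without number 3 only Adam8 and Slc39a4 were.

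Factors of translation initiation were examined by role. Of 17 factors of the eIF4 group and its regulators, 2 were called higher and 0 lower, against 0.575% and 0.33% of all genes tested. The median shift was 0.03. Without number 2 or 3 neither was called. Both called members inhibit poly(A)-binding protein: Paip2 shifted by 0.52 (adjusted p = 0.0183) and Paip2b by 0.47 (adjusted p = 0.0485). Of the 26 other initiation factors 1 was called in each direction, against the same shares. Eif1ax, a scanning factor, shifted by 0.54 (adjusted p = 0.0217). Eif2b2, a subunit of the exchange factor for eIF2, shifted by -0.43 (adjusted p = 0.0485). Without number 3 neither was called (adjusted p = 0.231 and 0.481). Paip2, Paip2b and Eif1ax have short coding regions of 372, 408 and 432 bases. In the shortest class of coding length, described below, 67 of all 2511 genes were called higher. Of the 14 subunits of eIF3, the largest initiation factor, 12 had a shift below 0 and 0 were called. Their median was -0.27, and -0.12, -0.29 and -0.18 by number, and 5 were called lower without number 1. Eif3d, the subunit with cap-binding activity that partners with DAP5, had an NSi heavy level of 649, 490 and 416 CPM and a shDap5 heavy level of 537, 489 and 441 CPM. These overlapped, while its light levels of 230, 233 and 228 CPM in NSi lay below those of 255, 298 and 300 CPM in shDap5. In the unblocked fit its log2 difference was 0.30 on light (edgeR adjusted p = 0.55) and -0.08 on heavy polysomes (edgeR adjusted p = 0.897). Its shift was -0.36 (SE 0.12, adjusted p = 0.12), and that of Eif3l was -0.42 (SE 0.13, adjusted p = 0.0839).

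Many mRNAs of the translation machinery begin with a terminal oligopyrimidine (TOP) tract, a cytosine followed directly by pyrimidines at the cap, through which mTOR signalling controls their loading. The first 20 bases of 4 such mRNAs are shown because they span the tract lengths and the classes of the family; sequences and coordinates are from RefSeq on GRCm38.p6, another build than that of the counts, and capitals mark the unbroken run of C and T from the start.
Rack1 (chr11:48800360-48800379, + strand, 10 letters): CTTTTTCTCCacagggtcgt
Eif3f (chr7:108934415-108934434, + strand, 11 letters): CTCTCTTTCTCggcaagatg
Rpl14 (chr9:120571517-120571536, + strand, 6 letters): CTTCTCgctgagcgccgcca
Rps21 (chr2:180257379-180257398, + strand, 5 letters): CTCCTgcccaatagtgctgc
The scaffold protein of the small ribosomal subunit Rack1, with a tract of 10 letters, had a shift of -0.22 (SE 0.46 in the unblocked fit). The shift of the eIF3 subunit Eif3f, with the longest tract of the 4, was -0.27 (SE 0.54). The large-subunit protein Rpl14 had a shift of -0.27 (SE 0.43) and the small-subunit protein Rps21, with the shortest tract of the 4, of 0.12 (SE 0.59). None of the 4 was called in the unblocked fit (edgeR adjusted p = 1 for each). Nor did the doubly blocked fit call any, with adjusted p of 0.307, 0.156, 0.246 and 0.671 in the order shown and an SE of 0.13 for each. Without number 1 it called Rpl14 (-0.54, adjusted p = 0.0111) and Eif3f (-0.44, adjusted p = 0.0472) lower. Rack1 and Rps21 were not called there (adjusted p = 0.0571 and 0.814), and without number 2 or 3 none of the 4 was.

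A start was matched for 10657 tested genes, and 337 of them began with a C followed by at least 4 further C or T, read on the sense strand. Of all 32851 annotated starts, 823 (2.51%) had this form. The median shift was -0.02 for genes with and -0.02 for genes without it, and the share above 0 was 45.7% and 47%. The lists of ribosomal proteins and of elongation factors and other TOP mRNAs, given next, held 102 tested members. Of these, 75 had a matched start and only 17 had this form. The class therefore leaves out most listed members of the family, and its median does not describe them. Of 82 cytosolic ribosomal proteins 0 were called and 37 lay above 0, with a median of -0.02. By number that median was 0.14, -0.28 and -0.07, so the numbers did not share a direction. Without number 1, 12 were called lower and 0 higher, and without number 2 or 3 none was. The 20 elongation factors and other TOP mRNAs had a median of -0.26, 17 below 0, and 1 called member: Eef1d, a subunit of the exchange factor for the elongation factor that delivers tRNA, at -0.49 (adjusted p = 0.0475). Without number 1, 6 of the 20 were called lower, and without number 2 or 3 none was. Ribosomal protein genes share reads with processed pseudogenes, so single values of this family are uncertain.

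Genes of the integrated stress response, which respond to phosphorylation of eIF2, had 1 called member of 42, against 0.905% of all genes tested. Cebpg, a basic leucine zipper transcription factor, shifted by 0.50 (adjusted p = 0.0297), while the median of the list was -0.10. Cebpg, with a coding length of 450 bases, was not called without number 2 (adjusted p = 0.124) or number 3 (adjusted p = 0.2). Of 8 mRNAs reported as DAP5 targets 0 were called, 5 lay above 0 and the median was 0.04. Bcl2, the inhibitor of apoptosis, stood at 45.5, 53.0 and 33.2 CPM on NSi heavy and at 40.0, 51.6 and 37.1 CPM on shDap5 heavy polysomes, with a shift of 0.18 (SE 0.12, adjusted p = 0.486). Cdk1, the mitotic kinase, had a shift of -0.26 (SE 0.12, adjusted p = 0.284).

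Of 13 transcription factors of the epithelial-mesenchymal transition 0 were called and the median was 0. Snai1 had a shift of -0.22 (SE 0.13, adjusted p = 0.396). Among 20 mesenchymal and matrix genes 1 was called higher (S100a4) and 1 lower (Cyr61, a secreted matricellular protein, at -0.56, adjusted p = 0.0219), and the median was -0.21. Cyr61 was not called without number 2 (adjusted p = 0.0632) or number 3 (adjusted p = 0.116). Collagen chains and integrins had medians of -0.19 over 24 genes and -0.22 over 18 genes with 0 called in both lists. These medians came from number 1, at -0.66 and -0.65. In numbers 2 and 3 they were 0.26 and 0.11 for collagens and 0.01 and -0.03 for integrins. Itga5, the fibronectin receptor subunit, had shifts of -0.91, 0.11 and -0.22 by number.

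Of 37 epithelial markers 28 lay below 0 and 0 were called, while without number 1 the same fit called 6 lower and 1 higher and without number 2 or 3 none. Of the 33 averaging 5 CPM or more, 20 were lower in all 3 numbers, a pattern shown by 23.9% of genes at that level. Krt8, a keratin of simple epithelia, had 361, 284 and 442 CPM on NSi light and 528, 451 and 639 CPM on shDap5 light polysomes. On heavy polysomes it had 1280, 926 and 1090 CPM in NSi and 1300, 1100 and 1240 CPM in shDap5. The shDap5 light libraries lay above all NSi light libraries, whereas the heavy libraries were higher by less, and the shift was -0.43 (SE 0.13, adjusted p = 0.0786).

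Genes of glycolysis and the hypoxia response had a median of -0.24, 25 of 33 below 0, and medians of -0.20, -0.17 and -0.18 by number. In this list 0 were called higher and 2 lower, against 0.575% and 0.33% of all genes tested. Without number 1, 2 and 3, 5, 1 and 1 members were called lower. Gpi1, glucose-6-phosphate isomerase, stood at 1010, 916 and 763 CPM on NSi heavy and at 805, 631 and 633 CPM on shDap5 heavy polysomes, with a shift of -0.57 (SE 0.13, adjusted p = 0.0176). Pfkm, a phosphofructokinase, shifted by -0.47 (adjusted p = 0.0485). Neither Gpi1 nor Pfkm was called without number 2 (adjusted p = 0.245 and 0.27) or number 3 (adjusted p = 0.223 and 0.191). Lysosomal and secreted hydrolases had a median of -0.27 over 27 genes, and 20 of them were lower in all 3 numbers. In 10 of the 27 all shDap5 gradients lay below all NSi gradients, against 6.71% of genes averaging 5 CPM or more. Of that list only the protease Ctsd was called, at -0.48 (adjusted p = 0.0485), and 4, 1 and 0 members were called without number 1, 2 and 3. Ctsd was not called without number 2 (adjusted p = 0.245) or number 3 (adjusted p = 0.391). The lysosomal amidase Aga, which the naming rule took from outside the lists, shifted by -0.51 (adjusted p = 0.0278). Aga was not called without number 2 (adjusted p = 0.224) or number 3 (adjusted p = 0.318).

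The tubulins Tuba1b (-0.46, adjusted p = 0.0426) and Tubb5 (-0.49, adjusted p = 0.0485) were the called members of 33 cytoskeletal genes, whose median was -0.10. Cholesterol synthesis (median -0.20, 21 of 25 below 0), proteasome subunits (-0.10, 28 of 37), genes of S phase (-0.12, 30 of 43), G2 and mitosis (-0.08, 23 of 36) and interferon-stimulated genes (-0.07, 23 of 40) had 0 called members. The endoplasmic reticulum chaperone list had a median of -0.14 with Hspa8 as its only called gene of 29, and immediate early genes one of -0.10 with Cyr61 as their only one of 30. Angiogenic factors had a median of -0.01, again with Cyr61 alone among 25. Without number 1 the fit called 4 proteasome subunits and 2 genes of cholesterol synthesis lower, 5 cytoskeletal genes lower and 2 higher, and 2 genes of G2 and mitosis higher and 1 lower, while without number 2 or 3 it called none in these lists. The lists overlap in members and were chosen with earlier results of the same data known.

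**Figure D3:**
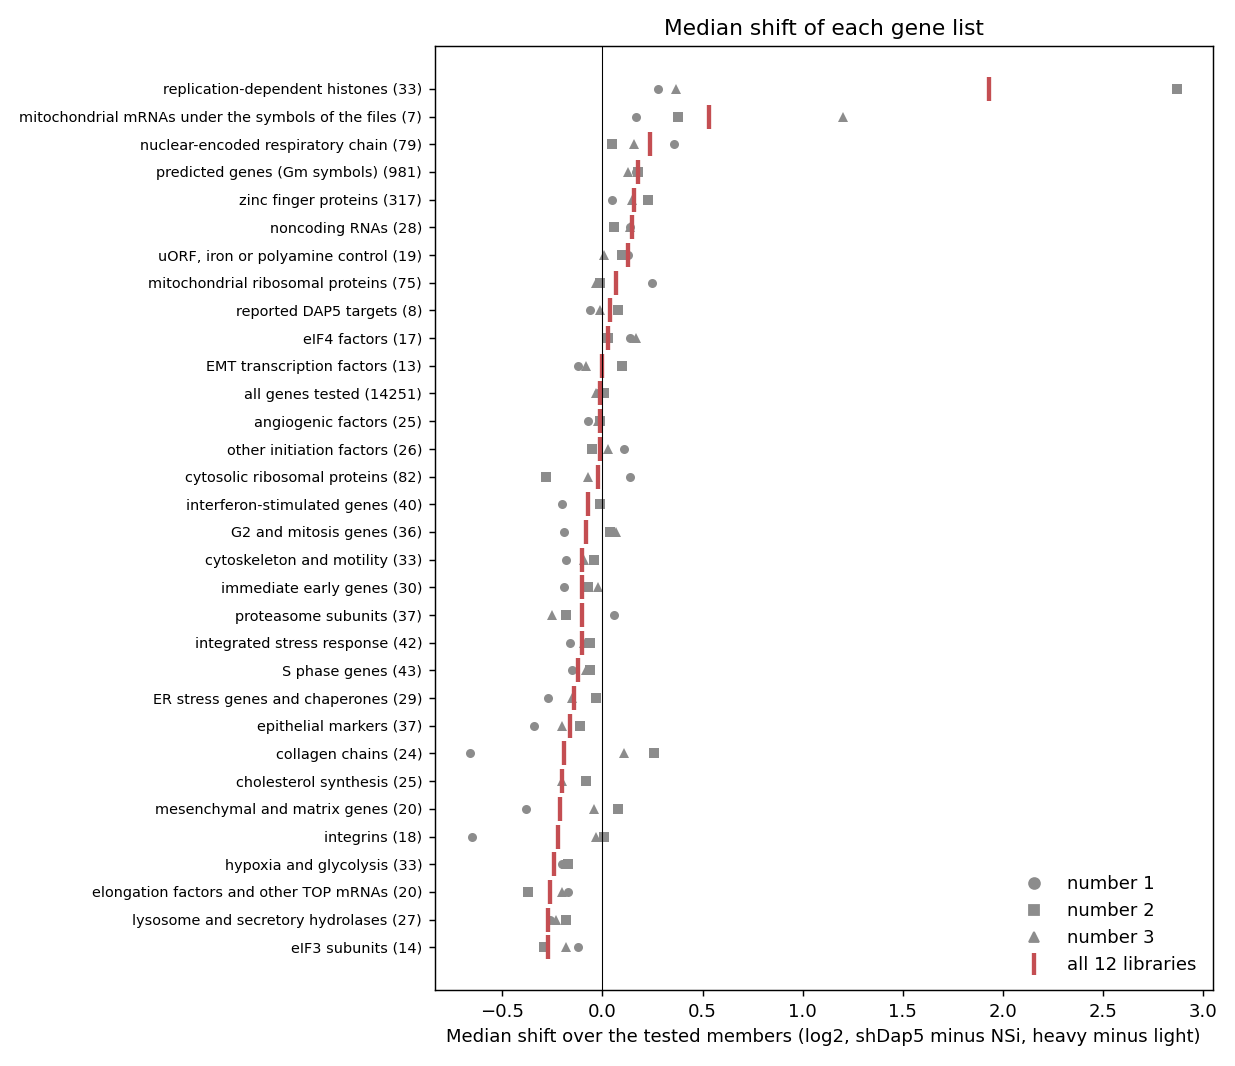
Median shift (log2) over the tested members of each gene list, whose number is in parentheses; red bars are the fit of all 12 libraries and grey symbols the 3 replicate numbers. Respiratory chain genes lie above 0 and glycolysis, hydrolases and eIF3 below 0 in every number, collagens and integrins lie far below 0 only in number 1, and histones lie far above 0 only in number 2.

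Coding length separated the genes called higher from those called lower. The median coding length was 378 bases for the 71 called higher that had one, 1510.5 bases for the 44 called lower that had one and 1402.5 bases for all tested genes. A length was found for 12486 of the tested genes (87.6%). The genes were divided by coding length into 5 classes of nearly equal size. In class 1, 99 to 762 bases, 67 of 2511 genes were called higher and 0 lower. In classes 2 to 5, from 764 bases upward, 4 were called higher and 44 lower. In order of length these classes held 8, 15, 17 and 4 called lower, so the longest class held the fewest of them. Without number 2 class 1 held 14 called higher and 0 lower, and without number 3 it held 15 and 0. Without number 1 it held 53 higher and 26 lower, against 46 and 220 in classes 2 to 5.

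Over all genes of class 1 the median shift was 0.18 and 78.1% lay above 0. In classes 2 to 5, in order of length, the median was -0.05, -0.07, -0.08 and -0.06. Class 1 was positive in each number, at 0.33, 0.05 and 0.11. Class 5, from 2529 bases upward, was -0.29 in number 1 but 0.06 and 0.02 in numbers 2 and 3, so a negative shift of the longest mRNAs rests on number 1. Class 1 exceeded class 5 by 0.25, and by 0.04 without NSi number 1 or without shDap5 number 3 and 0.50 without NSi number 3. Within gradients class 1 lay at -1.01, -0.77 and -0.49 (log2 heavy minus light) in NSi and at -0.65, -0.69 and -0.34 in shDap5, with each shDap5 value above the NSi value of its number.

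**Figure D4:**
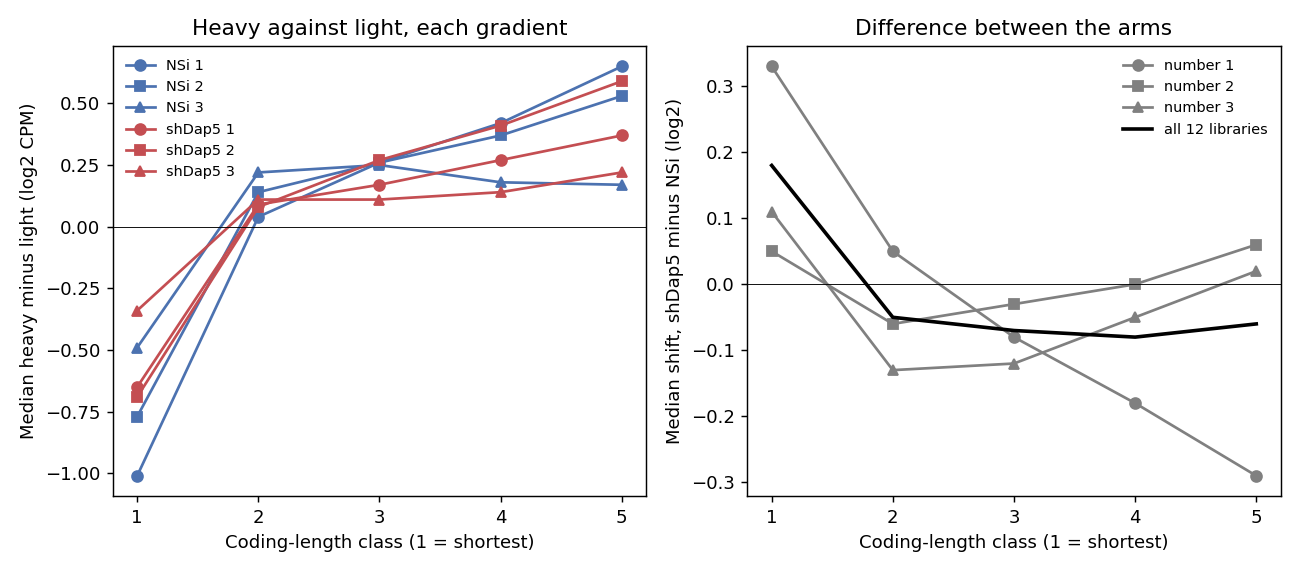
Coding-length classes of genes on the horizontal axis, 1 being the shortest: at left the median log2 heavy minus light in each of the 6 gradients, at right the median shift between arms by number (grey) and over all 12 libraries (black). Class 1 is the only one above 0 in every number, and the slope across the longer classes differs between number 1 and numbers 2 and 3.

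The spread of the heavy to light ratio over these 10196 genes was narrower in shDap5. Its SD (log2) was 0.999, 0.922 and 0.819 in NSi and 0.768, 0.861 and 0.718 in shDap5, with shDap5 minus NSi differences of -0.231, -0.0602 and -0.101 within numbers 1, 2 and 3. The arms overlapped, and an exact two-sided permutation test gave p = 0.2 without pairing (smallest possible 0.1) and p = 0.25 with pairing, the smallest that 3 pairs allow. Over the 3 such measures computed, the adjusted p without pairing was 0.3 for this one. The measure was chosen after the data were seen. Positive shifts of genes light in the control and negative shifts of genes heavy in the control, as described above, enter this measure through the same libraries.

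Groups outside the short mRNAs also had positive medians. Of 317 zinc finger proteins 234 lay above 0, against 47.7% of all genes tested. Their median shift was 0.16, and 0.05, 0.23 and 0.15 by number. Their median heavy to light ratio in NSi was -0.78. Of 28 noncoding RNAs 21 lay above 0, against the same 47.7%, and 1 was called higher, against 0.575% of all genes tested. Tug1, a nuclear and cytoplasmic long noncoding RNA, had 59.8, 63.0 and 58.6 CPM on NSi heavy and 76.6, 73.4 and 50.2 CPM on shDap5 heavy polysomes. With light levels of 127, 114 and 86.6 CPM in NSi and 101, 90.8 and 61.6 CPM in shDap5, its shift was 0.50 (SE 0.12, adjusted p = 0.0297). Tug1 was not called without number 1, 2 or 3 (adjusted p = 0.0505, 0.245 and 0.116). Malat1, retained in the nucleus, stood at -0.07, 1.34 and 1.05 by number (shift 0.75, SE 0.28, adjusted p = 0.285). The 981 predicted genes with Gm symbols had a median of 0.18, with members from -5.55 to 5.04. Only 72 of them averaged 5 CPM or more, so this median is mostly one of genes with low counts.

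Replication-dependent histones, whose mRNAs end in a stem-loop and lack a poly(A) tail, had the highest median shift of any list of protein-coding genes, 1.93 over 33 genes, and it rested on shDap5 heavy number 2. The summed level of the family there was 111 CPM against 32.6 and 46.5 CPM in the other shDap5 heavy libraries and 15.7 to 23.4 CPM in NSi heavy libraries. By number the median was 0.28, 2.87 and 0.37, and without shDap5 number 2 it was 0.30. Hist1h1e, a linker histone, had 11.5 CPM in that library and 0.279 to 1.39 CPM in the other 11; its shift of 1.87 was not called (adjusted p = 0.708). The one called member, Hist1h2bc, had 2.56, 2.03 and 2.80 CPM on NSi heavy and 6.28, 5.49 and 11.4 CPM on shDap5 heavy polysomes. It was also higher on light polysomes, at 18.9, 12 and 25.8 against 11.6, 8.09 and 12.5 CPM, and its shift was 0.81 (SE 0.18, adjusted p = 0.0175). Its shift was 0.82 without number 2 (adjusted p = 0.0551) and 0.71 without number 3 (adjusted p = 0.233), so the call was lost in both.

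A further 13 genes averaging 5 CPM or more had an estimated shift above 1, and all of them were raised in the same library. Their levels summed to 26200 CPM in shDap5 heavy number 2 and to 268 to 1700 CPM in the other 11. Cdk8, a kinase of the Mediator complex, was counted at 7510 CPM there against 96.7 and 274 CPM in shDap5 heavy 1 and 3, with a shift of 2.72 in the unblocked fit (SE 1.91). Lars2, the mitochondrial leucyl-tRNA synthetase, was counted at 3140 CPM against 32.6 and 100 CPM, with a shift of 3.12 (SE 1.93). Rn7sk, an RNA polymerase III transcript that is not among the 13 (mean 2.01 CPM), stood at 14.6 CPM against 0.558 and 0.453 CPM. Leaving out shDap5 number 2 gave shifts of -1.23 for Cdk8, -1 for Lars2 and -0.09 for Rn7sk, of the opposite sign. The 129 called genes do not include any of the 13.

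**Figure D5:**
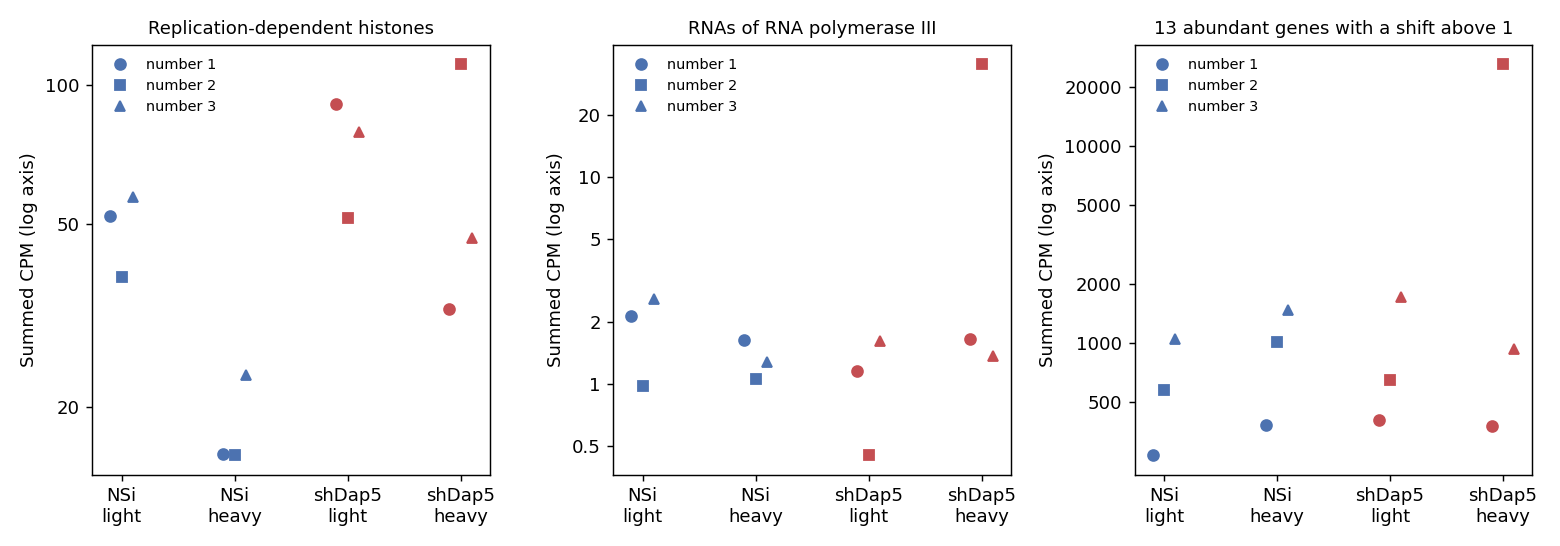
Summed CPM on log axes of histones, of RNAs made by RNA polymerase III and of the 13 abundant genes with a shift above 1, one point per library, with colours for the arm and shapes for the replicate number. The square at shDap5 heavy is number 2 and lies above every other library in all 3 panels.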

How the data were processed

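Polyadenylated RNA was sequenced from light and heavy polysomes. Values were raw counts by gene symbol as the authors deposited them, without scaling; reads were aligned with Bowtie to mm9, per the submitters' processing notes, while the sources used here do not name the counting program, annotation or strand setting, so families with shared reads and overlapping genes are uncertain. The 12 libraries were fitted with edgeR 4.0.16 in R 4.3.3 (quasi-likelihood F test, robust, TMM, filterByExpr, minimum count 10, minimum total 15), with 1 mean per group, 8 residual degrees of freedom and Benjamini-Hochberg adjustment over 14251 genes. DESeq2 1.42.0 and limma 3.58.1 were alternatives. Within-number differences used log2 CPM with a prior count of 2. The unblocked and the doubly blocked fit were tested on simulated data, in which both also called some unchanged genes, the doubly blocked fit more of them.

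Replicate numbers in the titles were checked for pairing over 10196 genes. Deviations from group means correlated at 0.512 to 0.765 between light and heavy of one arm and number. They correlated at 0.51 to 0.828 between arms of one fraction and number, and at -0.759 to 0.0143 for different numbers. Deviations from a mean of 3 libraries sum to 0, which pushes the values for different numbers below 0, so these are not a neutral baseline. Because of the correlations within numbers, blocked fits are given beside the unblocked one where they change a call. All replicate pairs differed by more than sampling noise (lowest chi-square/df 71.4).

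Members and gene lists were chosen with earlier results of these data known. Named genes were Eif4g2, the 10 per direction with the smallest p-values in the unblocked and gradient-blocked fits among genes of at least 5 CPM without overlap between arms, and up to 4 members of each list. Polr1c, Impdh2, Adam8, Smim10l1, S100a11, Cox6c, Uqcr11, CYTB, ND4, ND5, Hist1h1e, Cdk8, Lars2, Rn7sk, LOC102631912 and the 4 genes with printed sequences were chosen after their values were seen. Coding lengths came by symbol from GENCODE on GRCm38. The 27 symbols turned into dates are not named.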

Additional observations from a re-analysis of the deposited data

How the results depend on the processing

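The count of genes called was 0 in every planned fit: 18 alternatives that left out an arm and number or a single library (56 to 219 genes at an unadjusted p under 0.05), edgeR with RLE, upper quartile or total count scaling (77 to 80), no low-count filter (323 of 25096), a mean of at least 5 CPM (14 of 10192), dispersions that were not robust (76), all 18 libraries (181 of 15072), DESeq2 (84), limma voom without (71) or with (459) gradients as a random block, and a replicate block for each gradient (384), across arms (353) or within fraction (808). Fits added after seeing the data moved it: both replicate blocks together called 129, 35 without number 2 and 30 to 352 without one number, and limma on the 3 within-number differences called 15. The replicate block for each gradient changed no other call. For all of these differences the cause was not tested.

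Shifts that turned sign, none of them called in the unblocked fit, were those of Eif4g2 (-0.11 to 0.31 on leaving out 1 or 2 libraries, below 0 without NSi number 1 at -0.05, -0.03 with both replicate blocks and without number 1), Snai1 (-0.49 to 0.01, above 0 without NSi heavy 3), Rack1 (-0.64 to 0.07, above 0 at 0.02 without shDap5 number 3, and at 0.07 without shDap5 light 3), Eif3f (-0.85 to 0.12, above 0 at 0.05 without NSi light 2, 0.09 without shDap5 number 3, and 0.12 without shDap5 light 3) and Rps21 (-0.27 to 0.54, below 0 without any of 5 single libraries, -0.06 with both blocks and without number 1). Without shDap5 number 2, with both blocks and without number 2, and without shDap5 heavy 2 alone, Cdk8 stood at -1.23, -0.91 and -1.08 and Lars2 at -1, -0.81 and -0.90. Rn7sk stood at -0.09 and -0.12 in the first 2 of these fits. Their highest values, without shDap5 number 3, were 4.1, 4.37 and 4.51. Of the list medians, 54 of 310 values under other settings moved by more than the spread between numbers, 45 of them on leaving out an arm and number. At 3 libraries per group the unblocked fit leaves shifts within about 0.67 unresolved at the median gene.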
